A study of Mus musculus with 9 samples.

Results

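Mouse retinas that lost all TET enzymes in retinal progenitors were compared with retinas that kept 1 working allele of each and carried the same Cre transgene. This comparison used 6 of the 9 RNA-seq libraries of the series, and it covered the 21330 of 55487 listed genes that reached at least 0.5 CPM (reads on a gene per 1000000 reads on all genes) in at least 3 of the 9 libraries. Whole retina RNA was measured at postnatal day 21 in C57 BL/6J mice of 3 genotypes with 3 libraries each, and each library came from retinas pooled from a pair of animals. Tet tcKO retinas were Tet1 loxp/loxp, Tet2 loxp/loxp and Tet3 loxp/loxp with Chx10-Cre-GFP, and triple heterozygous (tHet) retinas were Tet1 loxp/+, Tet2 loxp/+ and Tet3 loxp/+ with Chx10-Cre-GFP. Both groups therefore had the Cre transgene, from in-crossed Cre positive parents, and differed in Tet dose. Cre negative (Cre-) retinas, from Cre- breeders, served here as side by side values and in the estimate of the spread. The transgene acts in retinal progenitors and is known to be mosaic, so cells that escaped recombination may remain, and cells that do not descend from those progenitors (vessels, microglia, pigment epithelium) kept their Tet alleles.

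TET enzymes oxidise 5-methylcytosine to 5-hydroxymethylcytosine and further products, which opens a path to unmethylated cytosine. In the retina, progenitors give rise to rods, cones, interneurons, ganglion cells and Müller glia, and a photoreceptor precursor that expresses NRL and its target NR2E3 becomes a rod and represses cone genes. Rods signal light through transducin, a phosphodiesterase and a cyclic nucleotide-gated channel, and cones use a parallel set of subunits encoded by other genes.

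Reads on genes ranged from 9627927 to 21108256 per library, so that 1 read equalled 0.0474 to 0.104 CPM. Markers of rods, cones, bipolar, amacrine and ganglion cells and Müller glia were present in every library, as the whole retina label would have it. One Tet tcKO library stood apart: the ribosomal RNA gene CT010467.1 took 28.7% of the reads in replicate 3, against 3.72% in tHet replicate 3 and 0.0409% to 0.226% in the other 7 libraries, which lowers every other CPM value of that library. On the first principal component of the 6 libraries (49.4% of the variance) tHet replicate 3, at -6.41, lay closer to Tet tcKO replicate 2, at 8.20, than to the other tHet libraries, at -51.7 and -61.2. Xist, which is transcribed from the inactive X chromosome, measured 1272, 793 and 2.42 CPM in tHet replicates 1 to 3. In Tet tcKO replicates 1 to 3 it measured 5.28, 769 and 825 CPM. It was thus low in 1 library of each group, under different replicate numbers. The part of sex in the results was not tested.

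The targeted genes were read first. Tet1 measured 49, 68.2 and 37.3 CPM in the 3 tHet libraries and 66.8, 74.9 and 51 CPM in the 3 Tet tcKO libraries, with overlapping groups. Tet2 likewise overlapped, at 199, 226 and 117 CPM across tHet and 179.8, 221 and 152 CPM across Tet tcKO. For Tet3 every Tet tcKO library (108, 152 and 99.2 CPM) lay below every tHet library (268, 288 and 155 CPM), with a log2 difference of -0.96 (SE 0.25, limma adjusted p = 0.024), which missed the threshold. These gene totals include reads outside the deleted exons and do not check the deletion. None of the 3 was called by limma, edgeR or DESeq2, and 1 had an unadjusted limma p under 0.05. Among all 21330 tested genes 3732 had such a p. Without tHet replicate 3 Tet3 was called lower by limma, at -1.24 (adjusted p = 0.0011).

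Of the 21330 genes tested, 640 (3.00%) were called, 297 higher (1.39%) and 343 lower (1.61%) in Tet tcKO. A call needed a limma adjusted p under 0.01 and a log2 fold change of at least 1 in either direction, on log2(CPM + 0.5), which understates changes of low genes. The change reached 2 on the log2 scale for 98 of the genes that rose and 106 of those that fell. In all 297 higher genes every Tet tcKO library lay above every tHet library, and in all 343 lower genes every one lay below, whereas 7.35% and 9.68% of all tested genes were separated in these directions. The calls rest on these same values, so the separation is no independent support for them. The median log2 fold change of all tested genes was -0.06. With CT010467.1 left out of the library totals that median was 0.07 and the calls were 427 higher and 215 lower, of which 289 and 214 were among the calls above. Leaving out Tet tcKO replicate 3 gave 284 higher and 89 lower (228 and 89 shared with the calls above), leaving out Tet tcKO replicate 1 gave 148 and 139, and leaving out tHet replicate 1 gave 169 and 170. Without tHet replicate 2 the lower calls came to 219, without tHet replicate 3 to 650 and without Cre- replicate 1 to 515, and a limma fit with no variance trend called 230 higher and 193 lower. At the edge of the filter, Ccl6 and Slc5a4b, where the third highest library was at 0.504 CPM, were tested, and Rpl3l and Trpv1, at 0.482 CPM, were not. Of 64 genes that reached 0.5 CPM in every Tet tcKO library and in no other library 36 were called higher. The filter favours this count.

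**Figure D1:**
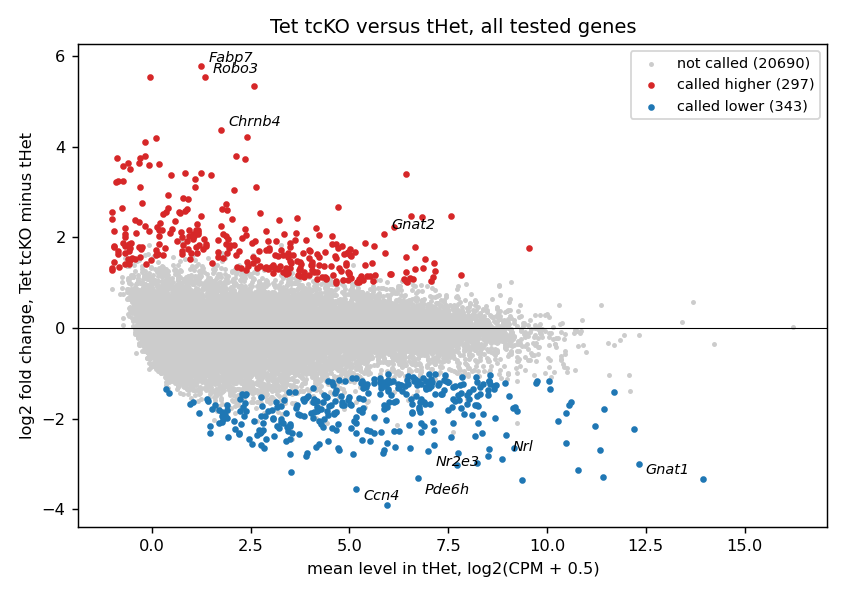
Each point is 1 of the 21330 tested genes, with its mean level in the 3 tHet libraries on the x axis, as log2(CPM + 0.5), and its log2 fold change in Tet tcKO against tHet on the y axis. The 297 genes called higher reach 5.78 (Fabp7) and lie mostly at low tHet levels, and the 343 called lower extend to high tHet levels, where Gnat1 stands at -2.99.

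**Figure D2:**
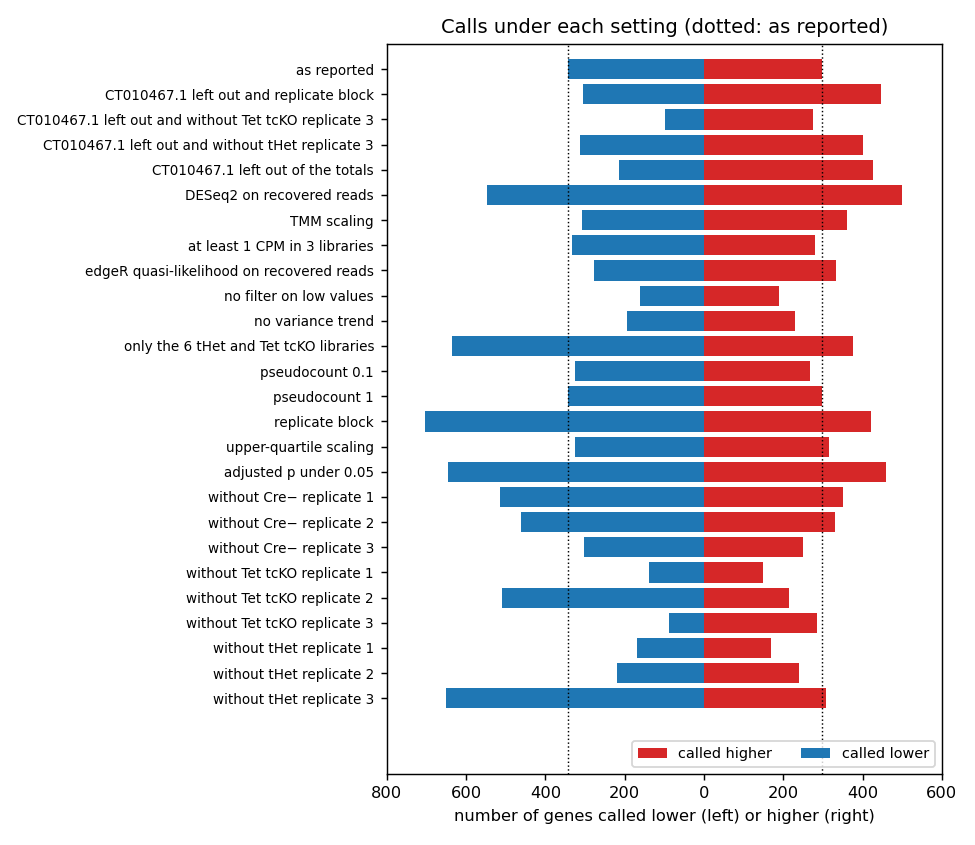
Bars count the genes called higher (red, right) or lower (blue, left) in Tet tcKO against tHet under each setting, and dotted lines mark the 297 and 343 calls reported. With 1 library left out and no other change, the lower calls range from 89 without Tet tcKO replicate 3 to 650 without tHet replicate 3.

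Among factors of rod fate, Nrl, Nr2e3, Esrrb, Samd11 and Samd7 fell in Tet tcKO and Prdm1 rose. Crx and Otx2, which rods share with other cells, were not called. Nrl, the leucine zipper factor that sets rod fate, measured 598, 520.0 and 373 CPM across tHet and 63.4, 144 and 92.4 CPM across Tet tcKO. It fell by 2.36 on the log2 scale (SE 0.27, limma adjusted p = 1.3e-05, n = 3 libraries a group). Nr2e3, the nuclear receptor that NRL activates, fell from 377, 355 and 383 CPM to 36.5, 85.7 and 60.9 CPM, a log2 change of -2.68 (SE 0.26, limma adjusted p = 1.6e-06), the smallest adjusted p among the genes called lower. Both genes were lowest in Tet tcKO replicate 1 and highest in replicate 2, and both groups stood well apart. Esrrb, an orphan receptor of mature rods, fell by 2.97, Samd11 by 1.45 and Samd7, a Polycomb-associated repressor of non-rod genes, by 1.18. Prdm1, which restrains bipolar fate in photoreceptor precursors and which the study names beside Nrl as biasing them towards rods, rose by 1.73. Crx, the factor common to rods and cones, measured 1145, 1449.7 and 972 CPM across tHet and 991, 982 and 690.0 CPM across Tet tcKO, and Otx2, which acts upstream of it, measured 135, 144 and 102 CPM and 144, 141 and 107 CPM, so both overlapped between the groups. Of the 13 factors tested 5 were called lower and 1 higher, beside 1.61% and 1.39% of all tested genes. Their median log2 fold change was -0.73. Without Tet tcKO replicate 3 the counts were 3 lower and 1 higher, with the calls of Esrrb and Samd7 lost. Samd7 also lost its call without Tet tcKO replicate 1 or 2, tHet replicate 1 or 2 or Cre- replicate 3, and with CT010467.1 left out of the totals. In whole tissue, fewer cells of a type and less RNA per cell cannot be told apart, here and below.

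Upstream sequences of 3 genes the comparison turned on are shown because Nr2e3 fell and Rxrg and Fabp7 rose. Each runs from 250 to 51 bases before the RefSeq start on GRCm38.p6, 5′ to 3′ on the gene's strand, with CG dinucleotides, the sites TET enzymes can act on, in capitals. None of these stretches overlaps a GENCODE exon. The table used also holds a second Rxrg start, not printed.
Nr2e3 (chr9:59950130-59950329, minus strand): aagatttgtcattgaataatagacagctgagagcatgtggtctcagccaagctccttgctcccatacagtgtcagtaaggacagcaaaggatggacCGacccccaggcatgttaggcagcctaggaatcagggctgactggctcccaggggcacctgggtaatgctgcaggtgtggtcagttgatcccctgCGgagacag
Rxrg (chr1:167598112-167598311, plus strand): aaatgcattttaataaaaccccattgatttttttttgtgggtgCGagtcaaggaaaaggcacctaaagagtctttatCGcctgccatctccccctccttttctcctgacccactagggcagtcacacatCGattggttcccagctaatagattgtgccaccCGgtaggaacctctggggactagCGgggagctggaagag
Fabp7 (chr10:57784673-57784872, plus strand): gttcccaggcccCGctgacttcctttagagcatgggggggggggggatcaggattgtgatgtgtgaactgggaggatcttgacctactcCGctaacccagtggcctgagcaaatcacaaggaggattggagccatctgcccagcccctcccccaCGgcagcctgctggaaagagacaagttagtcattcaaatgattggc
The stretches hold 2 CG dinucleotides upstream of Nr2e3, 5 upstream of Rxrg and 3 upstream of Fabp7. Neither TAATCC, a core bound by CRX, nor TGCTGA, a core bound by NRL and other MAF factors, occurs in them on either strand.

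The rod phototransduction cascade fell nearly as a whole. Of 9 genes tested 8 were called lower, with a median log2 fold change of -2.53 beside -0.06 for all tested genes and 1.61% of them called lower. Gnat1, the alpha subunit of rod transducin, measured 5628, 4823 and 4875 CPM across tHet and 258, 1543 and 659 CPM across Tet tcKO, a change of -2.99 (SE 0.45, limma adjusted p = 0.00027). Every mutant library was far below the controls, and replicate 2 kept more than the others. The phosphodiesterase subunits fell by 3.29 (Pde6a), 2.17 (Pde6b) and 2.89 (Pde6g), the channel subunits by 2.53 (Cnga1) and 2.05 (Cngb1), the transducin beta subunit Gnb1 by 2.24, and the exchanger Slc24a1 by 2.68. Gngt1, the rod transducin gamma subunit, was the exception, at 1005, 592 and 1094 CPM across tHet and 703, 682 and 569 CPM across Tet tcKO. Summed over the 9 genes, the tHet libraries held 23337, 20497 and 21067 CPM and the Tet tcKO libraries 2880.3, 6929.5 and 3878 CPM. Without Tet tcKO replicate 3, 6 of the 8 calls remained, those of Gnat1 (-3.01, limma adjusted p = 0.014) and Pde6a (-3.37, limma adjusted p = 0.012) being lost although their log2 changes were no smaller.

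Genes that end the light response and build the outer segment shifted the same way, beside 1.61% of all tested genes called lower. Among 11 shutoff and calcium feedback genes 6 fell, including Guca1b, a guanylate cyclase activator (278, 389 and 203 CPM for tHet, 22.9, 100.4 and 65.3 CPM for Tet tcKO), Grk1, the opsin kinase, by 1.87, and Rcvrn, its calcium sensor, by 1.84. Sag, rod arrestin, had a log2 difference of -1.03 and was not called (limma adjusted p = 0.077). Of 14 outer segment genes 7 fell, with a median of -1.28. Prph2, which shapes the disc rim, went from 2043, 1766 and 1518 CPM across tHet to 71.7, 521 and 212 CPM across Tet tcKO, a change of -3.14 (SE 0.44), while its partner Rom1 fell by 1.74 and the matrix proteoglycan Impg1 by 1.99. Without Tet tcKO replicate 3 the calls were 0 higher and 3 lower for shutoff genes and 0 higher and 4 lower for outer segment genes. At the photoreceptor synapse Cplx4, a complexin of the ribbon, measured 690.2, 516 and 791 CPM across tHet and 12.4, 181 and 110.2 CPM across Tet tcKO, falling by 3.36. The channel subunit Cacna1f (-1.35), its regulator Cabp4 (-1.85) and Rims2 (-1.35) also fell, Elfn2, an adhesion protein, rose by 1.58, and the other 11 of 16 synaptic genes were not called. Leaving out Tet tcKO replicate 3 kept the calls of Cabp4 and Elfn2 in this list. Those of Cacna1f and Rims2 were also lost without Tet tcKO replicate 1, tHet replicate 1 or tHet replicate 2, and those of Cplx4 and Cacna1f with CT010467.1 left out of the totals.

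Cone phototransduction genes rose. Of 11 tested 7 were called higher, against 1.39% of all genes, and 1 lower, and their median log2 fold change was 1.33. Gnat2, cone transducin alpha, measured 56.2, 54.9 and 62.9 CPM across tHet and 289.9, 217 and 229.9 CPM across Tet tcKO, a rise of 2.06 (SE 0.20, limma adjusted p = 1.7e-06). Cngb3, a cone channel subunit, went from 84.4, 99.2 and 72 CPM to 1110.0, 948 and 671 CPM, a rise of 3.39 (SE 0.23). All 3 mutant libraries exceeded all 3 controls in both genes. Opn1sw, the short-wave opsin, rose by 1.80, Gngt2 by 1.87, Cnga3 by 1.68, Gnb3 by 1.33 and the arrestin Arr3 by 1.12. Opn1mw, the medium-wave opsin, did not follow, at 43.8, 66.9 and 30.4 CPM across tHet and 27.4, 53.4 and 27.2 CPM across Tet tcKO. Pde6h, the inhibitory subunit of cone phosphodiesterase, fell from 105, 119.9 and 90.5 CPM to 4.39, 24.1 and 9.45 CPM, a change of -3.31 (SE 0.37, limma adjusted p = 8.6e-06); its exons overlap Arhgdib on the other strand. Summed over the list, the tHet libraries held 898, 1030.0 and 903 CPM and the Tet tcKO libraries 3269, 2844 and 2082 CPM, and without Tet tcKO replicate 3 the calls were 6 higher and 1 lower. Among 7 cone fate factors Rxrg, the retinoid receptor of cones, rose from 6.62, 11.1 and 11 CPM to 59.1, 41 and 28.5 CPM (log2 2.08, SE 0.29) and Sall3 rose by 1.60, while Thrb, the thyroid hormone receptor of cone precursors, measured 152, 208 and 114 CPM across tHet and 223, 192 and 132 CPM across Tet tcKO. The calls of Gnb3, Arr3 and Sall3 were lost without Tet tcKO replicate 1 or tHet replicate 1, and that of Arr3 also without Tet tcKO replicate 2 or 3 or tHet replicate 2.

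**Figure D3:**
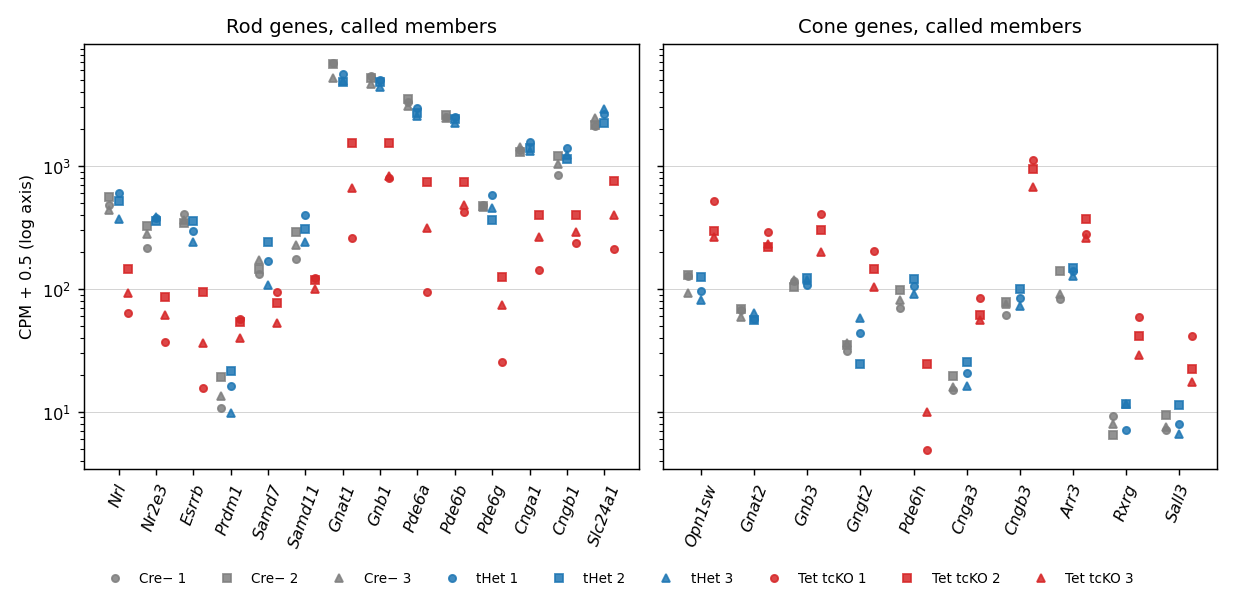
The level of each called rod gene (left) and cone gene (right) is plotted for every library as CPM + 0.5 on a log axis, with Cre- in grey, tHet in blue and Tet tcKO in red, and replicates 1, 2 and 3 as circles, squares and triangles. The red points of the rod cascade lie below the blue ones and those of the cone cascade above, with the exceptions of Prdm1 among the rod-side factors and Pde6h among the cone genes.

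The largest rises were in genes of low level in tHet. Fabp7, a fatty acid binding protein of radial glia, measured 1.94, 2.39 and 1.28 CPM across tHet and 173, 99.2 and 119.5 CPM across Tet tcKO, a log2 rise of 5.78 (SE 0.30, limma adjusted p = 2.6e-10). Robo3, an axon guidance receptor, went from 1.51, 2.18 and 2.46 CPM to 113, 136 and 104 CPM, a rise of 5.54 (SE 0.30). No mutant library came near the tHet range in either gene. Chrnb4, a nicotinic acetylcholine receptor subunit, rose from 2.02, 3.32 and 3.32 CPM to 101, 65.1 and 48.6 CPM (log2 4.37), Clca1, a secreted protein known from mucous epithelia, from 4.39, 5.50 and 4.45 CPM to 136, 89 and 75.2 CPM (log2 4.21), and Otop3, a proton channel, from 3.38, 4.47 and 3.74 CPM to 83.4, 57.5 and 44.8 CPM (log2 3.80). Akr1b8, an aldo-keto reductase, rose by 4.09 and Egr3, an activity-regulated factor, by 3.80. The other genes among the 12 largest rises were Gm8189, an annotated pseudogene (5.52), Gm45861 (5.34), which shares exons with Gm1698 and Poteg on its own strand so that its reads are uncertain, and the noncoding Gm41639 (4.19), Gm47877 (3.76) and C230057A21Rik (3.75). Gm47877 and C230057A21Rik reached 0.5 CPM only in Tet tcKO libraries, so the filter itself picked them for high mutant levels and their fitted changes depend on the 0.5 added. Gm8189, Akr1b8 and Egr3 reached 0.5 CPM in fewer than 3 libraries outside Tet tcKO, so they too needed the mutant libraries to pass. All 12 were also called without Tet tcKO replicate 3. Gm47877 lies within the bounds of Chrnb4 on the other strand, with no shared exon listed. The strand setting of the counter is not given, and whether reads of Gm47877 come from Chrnb4 was not tested.

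The families of these genes did not rise as a whole. Of all tested genes 1.39% were called higher and 1.61% lower. Of 10 nicotinic subunits 3 rose, Chrnb4, Chrna5 (2.08) and Chrna3 (1.92), and 7 were not called, among them Chrnb2 at 0.13. Among 18 guidance genes Robo3 and Slit3 (0.360, 0.519 and 0.474 CPM for tHet, 7.48, 3.36 and 1.87 CPM for Tet tcKO) rose, and Robo1 (0.17) and Robo2 (0.16) were not called. Of 5 fatty acid binding proteins Fabp7 rose, Fabp4 of fat and vessels fell by 2.07, Fabp12 fell by 2.08, and Fabp5 stood at 0.69 without a call. The call of Fabp4 was lost without Tet tcKO replicate 3 and that of Slit3 without Tet tcKO replicate 1, and the other calls in this paragraph held with any 1 library left out.

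Beyond the photoreceptor lists, the largest falls held Gm20139, a long noncoding RNA, at 73.5, 86.3 and 24.7 CPM across tHet and 0.297, 11.1 and 4.76 CPM across Tet tcKO (log2 -3.90, SE 0.63). Ccn4, a matricellular Wnt target, fell from 37.7, 46 and 22.3 CPM to 0.416, 9.03 and 2.35 CPM (log2 -3.56), Slc22a29, a solute carrier, by 3.18, and the potassium channel Kcnj14 by 3.02. Their mutant values ranged widely, with replicate 2 highest in each, and none of these 4 was called without Tet tcKO replicate 3. Slc22a29 also lost its call without Tet tcKO replicate 1, and Gm20139 and Kcnj14 with CT010467.1 left out of the totals. Among the smallest adjusted p values of the falls were also Kcne2, a potassium channel subunit (48.7, 40.8 and 47.4 CPM for tHet, 4.33, 11.8 and 8.85 CPM for Tet tcKO, log2 -2.48), Arl4d, a small GTPase (-2.03), and Gm47160 (-2.77), and these were called without that library as well. Over all 343 genes called lower, replicate 2 was the highest Tet tcKO library in 307, and over the 297 called higher, replicate 1 was the highest in 204.

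Progenitor and proneural genes leaned upward with few calls. Of 15 tested 2 rose, Six6, an eye field factor (96, 102 and 159 CPM for tHet, 418, 344 and 257 CPM for Tet tcKO, log2 1.52), and Atoh7, the proneural factor of ganglion cells, which stayed low at 2.02, 1.71 and 1.32 CPM in Tet tcKO against 0.144, 0 and 0.237 CPM in tHet. Atoh7 reached the CPM level of the filter only in Tet tcKO libraries, so the filter itself picked it for high mutant levels. Its fitted log2 change depends on the value added to CPM, and ranged from 1.25 to 3.506 across the settings. The list's median was 0.56, beside -0.06 for all tested genes, with 14 of 15 members above 0. In 9 members every Tet tcKO library lay above every tHet library, which held for 7.35% of all tested genes. The share of all tested genes called higher was 1.39%. In the Notch pathway, which keeps progenitors undifferentiated, Notch1 rose by 1.11 and the ligand Dll1 from 11.2, 11.8 and 11 CPM to 45.3, 36.5 and 27.4 CPM (log2 1.61), the ligand Jag1 fell by 1.46, and 12 of 15 were not called. Of 12 SoxC and immature neuron genes tested 11 were not called, and their median was 0.16. Sox11, a factor of immature neurons, was the 1 call and rose by 1.40. Its relative Sox4 measured 68.1, 92.8 and 106 CPM across tHet and 279, 158 and 152 CPM across Tet tcKO without a call (limma adjusted p = 0.012). Sox4 was called with CT010467.1 left out of the totals. Without Tet tcKO replicate 3 the calls of Six6, Atoh7, Notch1, Dll1 and Sox11 held and that of Jag1 was lost. Without Tet tcKO replicate 1 those of Atoh7, Notch1, Sox11 and Jag1 were lost, without tHet replicate 1 those of Notch1, Sox11 and Jag1, without Tet tcKO replicate 2 those of Notch1 and Sox11, and without tHet replicate 2 that of Jag1, whereas Six6 and Dll1 were called in each case.

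Inner retinal markers moved less uniformly, beside 1.39% of all tested genes called higher and 1.61% called lower. Of 14 ON bipolar genes Cabp5, a calcium binding protein of bipolar cells, rose from 124, 117 and 103 CPM to 819, 687 and 445 CPM (log2 2.46, SE 0.25) and Gnb3, shared with the cone list, rose, while Nyx, a scaffold of the mGluR6 cascade, fell by 1.86. Trpm1, the cation channel of ON bipolar cells, measured 652, 735 and 421 CPM across tHet and 39.1, 378 and 169 CPM across Tet tcKO and just missed the threshold (log2 -2.11, limma adjusted p = 0.011). Among 13 amacrine genes only Slc6a9, the glycine transporter, was called (-1.39), among 11 ganglion cell genes Nefh (-1.30) and Sncg (-1.56) fell, and 0 of 5 horizontal cell genes were called by limma, edgeR or DESeq2 (2 at an unadjusted limma p under 0.05). Of all 21330 tested genes 3732 had an unadjusted limma p under 0.05. For both called ganglion cell genes tHet replicate 3 was the highest library, at 456 CPM for Nefh and 176 CPM for Sncg. In Müller glia, Rlbp1, a retinoid carrier (-1.47), Glul, glutamine synthetase (-1.18), and Abca8a (-1.34) fell and Apoe, a lipid carrier, rose (1.17), with the other 10 of 14 markers not called. The median log2 fold change of this glial list was 0.25, with 8 members above 0 and 6 below. For the amacrine list it was 0.11, with 8 above and 5 below. Outside the calls of Cabp5, Gnb3 and Rlbp1, none of the calls in this paragraph held without Tet tcKO replicate 3. In that setting the amacrine list turned to 2 higher and 0 lower, with Gad2 at 1.43 and Tfap2a at 1.03, and Sox9 of the glial list was called higher (1.05). Of the calls reported here, those of Cabp5 and Rlbp1 held with any 1 library left out.

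**Figure D4:**
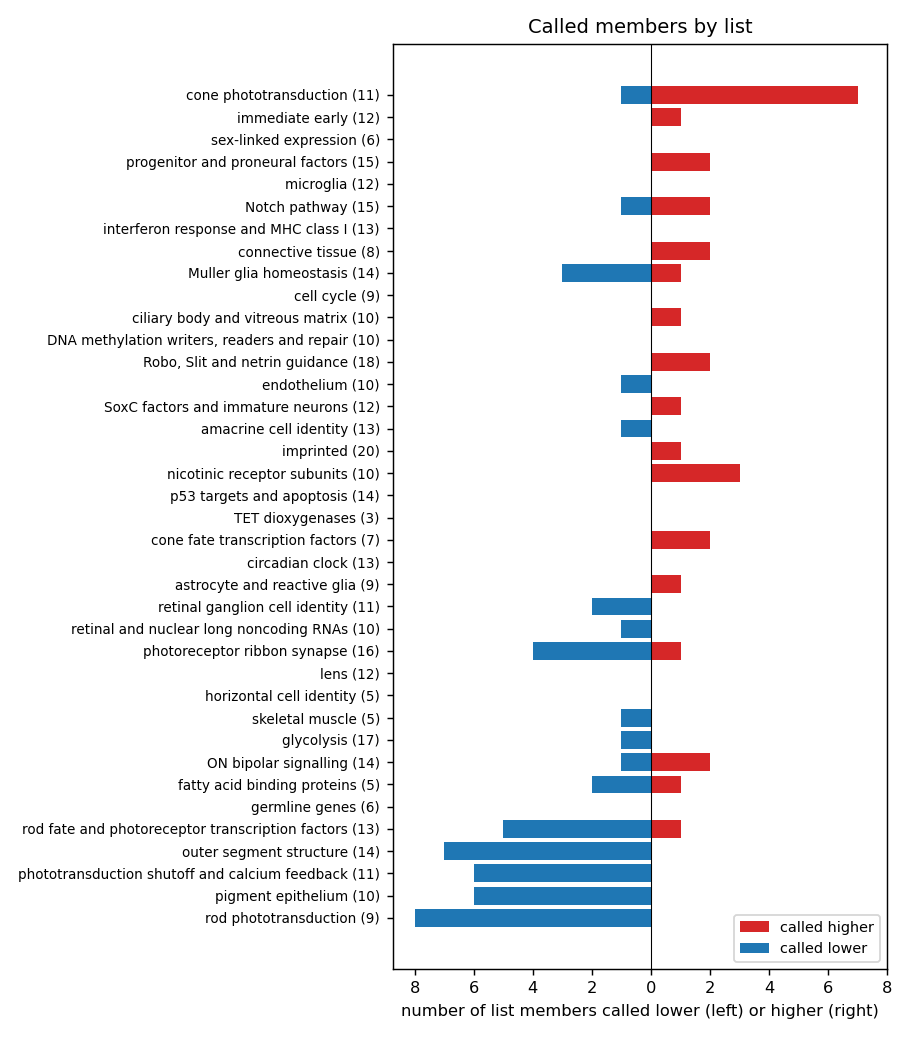
Bars count the members of each gene list called higher (red, right) or lower (blue, left) in Tet tcKO against tHet, with the number tested in brackets and lists ordered by their median log2 fold change. The longest blue bars are rod phototransduction with 8 of 9 and outer segment structure with 7 of 14, and the longest red bar is cone phototransduction with 7 of 11.

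Markers of tissue around the retina also moved, beside 1.39% of all tested genes called higher and 1.61% called lower. Of 10 pigment epithelium markers 6 fell: Rpe65, the retinoid isomerase (23.8, 15.7 and 19 CPM for tHet, 3.80, 4.74 and 3.13 CPM for Tet tcKO), Rgr (-2.31), Rdh5 (-1.45), Ttr, transthyretin (-2.27), and the melanin enzymes Tyr (-1.90) and Dct (-1.71). Their summed level was 219, 57.8 and 138 CPM in Cre-, 240.4, 185 and 269.5 CPM for tHet and 66.1, 63.5 and 49.3 CPM for Tet tcKO, so the Cre- libraries spanned most of the range of the other groups. With CT010467.1 left out of the totals 3 of the 6 calls remained, and without Tet tcKO replicate 3 none did. The ciliary body and vitreous list summed to 94.3, 88.6 and 122 CPM in Cre-, 282, 275 and 408 CPM for tHet and 447, 539 and 424 CPM for Tet tcKO, and of its 10 genes Col9a2, a vitreous collagen, was called (1.14), and lost the call when any 1 of the 3 Tet tcKO libraries was left out, while 3 of the 10 were called higher with CT010467.1 left out of the totals. Collagen genes of connective tissue included Col1a2, which rose from 4.54, 4.26 and 5.35 CPM to 33.7, 17.1 and 15.8 CPM, and Col6a2 (1.59), with 8 tested. No member of the microglia list (12 tested, median 0.49) or the lens list (12 tested, median -0.38) was called by limma, edgeR or DESeq2, with 3 and 0 members at an unadjusted limma p under 0.05, and Flt1, a receptor of vessels, was the 1 call among 10 endothelial genes (-1.85), lost without Tet tcKO replicate 3. An unadjusted limma p under 0.05 was reached by 3732 of all 21330 tested genes. The endothelial list had a median of 0.20, with 6 members above 0 and 4 below. The call of Col6a2 was lost without Tet tcKO replicate 1. How far tissue carried along in dissection entered these results was not tested.

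**Figure D5:**
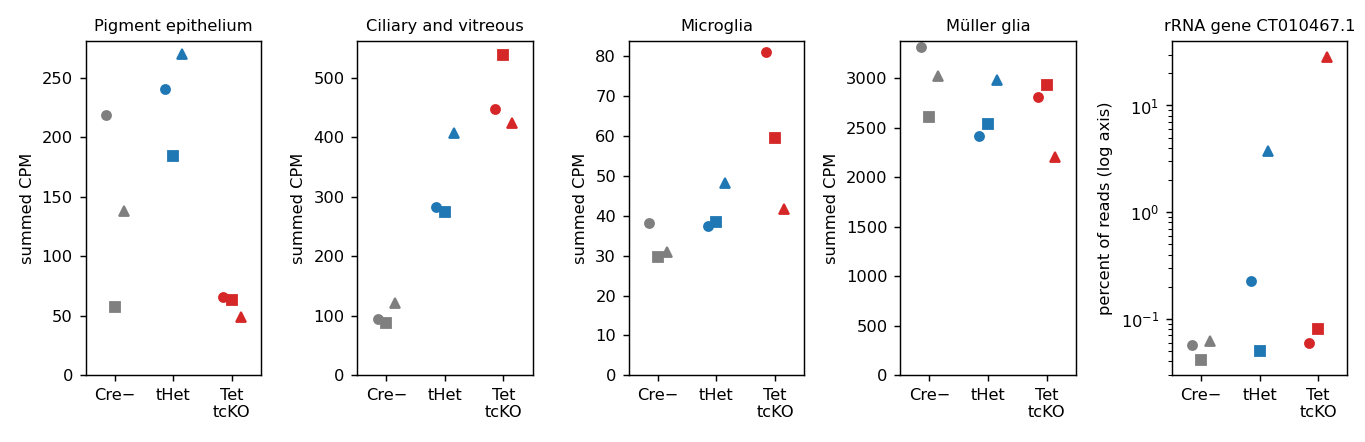
Summed CPM of the marker lists for pigment epithelium, ciliary body and vitreous, microglia and Müller glia, and the percent of reads on CT010467.1 (log axis), are plotted per library for Cre- (grey), tHet (blue) and Tet tcKO (red), with replicates as circles, squares and triangles. Pigment epithelium markers sum to 49.3 to 66.1 CPM in Tet tcKO, below every tHet library, with 1 Cre- library at 57.8 CPM inside that range, and Tet tcKO replicate 3 holds 28.7% of its reads on the ribosomal RNA gene.

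For 6 called genes with a mean of at least 1 CPM the means of tHet and Cre- lay farthest apart, though none of the 6 differences between these controls passed the limma threshold (adjusted p = 0.041 to 0.82). Trim43b, a gene of early embryos, measured 0.118, 0 and 0.135 CPM in Cre-, 0.648, 2.39 and 2.18 CPM across tHet and 6.95, 11.5 and 7.47 CPM across Tet tcKO, a log2 difference of 2.11 from tHet and 3.94 from Cre-. Col4a6, a basement membrane collagen, had the same order, at 1, 2.35 and 2.63 CPM, 5.54, 7.17 and 9 CPM and 28, 26.8 and 20.2 CPM. Dct was highest in tHet, with 21.7, 6.55 and 29.2 CPM in Cre-, 52, 36.9 and 87.2 CPM across tHet and 16.6, 17.7 and 15.4 CPM across Tet tcKO, which is -1.71 from tHet and 0.03 from Cre-. Tyr (-1.90 from tHet, -0.48 from Cre-) and Cldn2, a tight junction protein (-2.41 and -0.72), were likewise highest in tHet, and the pseudogene Gm8423 (2.56 and 1.03) was lowest there. None of the 6 calls held without Tet tcKO replicate 3. By contrast Gnat1 measured 6852, 6738 and 5217 CPM in Cre- and Fabp7 0.589, 0.509 and 0.810 CPM, so that the differences from Cre-, -3.28 and 6.82, stood beside -2.99 and 5.78 from tHet. Both comparisons share the Tet tcKO libraries.

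By annotation, 81.8% of the genes called higher and 76.7% of those called lower were protein coding, beside 69.1% of all tested genes, and long noncoding genes made up 14.5%, 19.5% and 21.7%. A RefSeq promoter, 250 bases before to 50 after a start, was found for 197 of the 297 higher genes, 227 of the 343 lower genes and 12870 of the 21330 tested. Promoters of the lower genes held a median of 13 CG dinucleotides, those of the higher genes 16, and those of all tested genes 20. TAATCC occurred on either strand in 15.9% of the lower genes' promoters, 11.2% of the higher genes' and 7.44% of the tested genes', beside 7.06% of all 32851 promoters in the table. TGCTGA occurred in 24.2%, 16.8% and 19.3%, beside 19.5% of all promoters. Where a gene had several promoters the highest CG count was taken and a motif in any of them counted. These are descriptions of letters in the window and carry no test.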

How the data were processed

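Whole retina RNA was sequenced after ribosomal RNA removal with a stranded total RNA kit. Per the labels and the study's methods, the authors trimmed reads with Trim Galore 0.6.7, aligned them to mm10 with STAR 2.7.0f, counted them with HTSeq 0.11.2 and deposited CPM values made with edgeR 4.2.2; the annotation release and the strand setting of the counter are not given in the sources used here. The deposited table also holds the authors' own log2 fold changes and p-values, which were not used. Dividing each CPM value by that of 1 read gave whole reads for 100% of positive values (tolerance 0.01), and no 2 libraries were identical. As the authors deposited CPM, limma 3.58.1 (lmFit and eBayes with variance trend, R 4.3.3) was fitted to log2(CPM + 0.5) with 1 mean per genotype over all 9 libraries, with Benjamini-Hochberg adjustment over 21330 genes; edgeR 4.0.16 and DESeq2 1.42.0 on recovered reads were alternatives. On simulated counts for these 21330 genes limma recovered 157 of 200 genes changed by 2 on the log2 scale, with 0 false calls. The changed genes averaged 1 CPM or more, and the simulation lacked the shift that CT010467.1 puts on Tet tcKO replicate 3. Its 0 false calls therefore do not carry over to the real libraries. Coordinates, gene types and exon overlaps came from GENCODE M21 (55227 of 55487 IDs matched) and promoters from RefSeq, GRCm38.p6. Libraries are separate pools of animals; an exact permutation test of 3 against 3 cannot go below p = 0.1 and was not used. Genes were named if they were among the 12 largest rises and falls whose groups did not overlap and whose libraries averaged 1 CPM or more, the 5 smallest adjusted p in each direction, the 6 largest tHet against Cre- differences among calls, or members of the lists. Members and lists were chosen with earlier results of these data known, and some genes that met the rule are not reported here. The no-trend fit and the settings that combine 2 changes were chosen after seeing the data.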

Additional observations from a re-analysis of the deposited data

How the results depend on the processing

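Changing 1 choice at a time moved the counts, 640 called with 297 higher and 343 lower, as follows. With no filter on low values there were 351 (189 and 162), with no variance trend 423 (230 and 193), with DESeq2 1046 (500 and 546), with only the 6 compared libraries 1013 (377 and 636) and at an adjusted p under 0.05 1104 (458 and 646). Leaving CT010467.1 out of the totals gave 427 higher and 215 lower, which moved the higher share of calls from 46.4% to 66.5%. Leaving out 1 library at a time gave 287 to 959 calls, 148 to 351 higher and 89 to 650 lower; the spread was pooled over all groups. Other pseudocounts, a filter at 1 CPM, upper-quartile and TMM scaling and edgeR stayed within 1.5 times in each count. The prior degrees of freedom that limma estimates, 14.1 as reported, became 29.3 without Cre- replicate 1, 28.5 without tHet replicate 3 and infinite with 6 libraries, so in the last case every gene took its variance from the trend alone, and the higher counts there come with stronger pooling of the spread and no added libraries. They fell to 5.58 without Tet tcKO replicate 3 and 6.04 with CT010467.1 left out. The labels do not state that replicate numbers pair the samples. Same-numbered tHet and Tet tcKO libraries correlated at -0.30, 0.27 and -0.08 in their deviations from the group means. A replicate block gave 1125 calls (421 and 704) with prior degrees of freedom of 32.7, or 446 higher with CT010467.1 also left out. The median residual variance was 0.116 as reported and 0.0909 with that block, and whether replicate numbers share spread was not tested. CT010467.1 left out together with Tet tcKO replicate 3 gave 375 calls (276 higher and 99 lower), and together with tHet replicate 3 it gave 714 (402 and 312). Of the 34 genes that met the rules on size, adjusted p and control difference, 18 kept their call under every alternative run on them, 16 lost it under some, all of them without Tet tcKO replicate 3, and 0 reversed. Adding the called list members, 102 calls were followed, of which 45 were lost without Tet tcKO replicate 3, 35 without Tet tcKO replicate 1 and 29 without tHet replicate 1, and those lost without Tet tcKO replicate 3 kept log2 changes of 0.804 to 1.13 times their size. Depth limits low genes: 3 reads equal 0.142 to 0.312 CPM, and this covers counting error only.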

Other observations

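Several gene groups outside the comparisons above held few calls, beside 3.00% of all tested genes called. Of 12 immediate early genes Egr1, an activity-regulated factor, rose from 10.2, 49.8 and 16.4 CPM across tHet to 136, 137 and 123 CPM across Tet tcKO (log2 2.67, SE 0.38, limma adjusted p = 0.00014), and it was not called without Tet tcKO replicate 3 (limma adjusted p = 0.015). The list's median was 0.70, and Fos stood at 0.59 without a call. Egr3, named above with a rise of 3.80, was not in this list and kept its call without Tet tcKO replicate 3. Among 20 imprinted genes Peg10 rose (6.77, 7.48 and 8.57 CPM for tHet, 27.4, 20.9 and 14 CPM for Tet tcKO, log2 1.34), while Peg3 stood at -0.00 and H19 at -0.62. Of 17 glycolytic genes Pfkp, a phosphofructokinase, fell by 1.5, and the median was -0.52 with 16 of 17 below 0. That median was -0.37 with CT010467.1 left out of the totals and -0.28 without Tet tcKO replicate 3. Vax2os, an antisense RNA of the Vax2 locus, was the 1 call among 10 long noncoding RNAs (-2.20), and Socs3, an inhibitor of cytokine signalling, the 1 among 9 genes of reactive glia (1.86), where Gfap stood at -0.33. The calls of Pfkp, Vax2os and Socs3 were lost without Tet tcKO replicate 3 (limma adjusted p = 0.032, 0.018 and 0.0102), those of Pfkp, Socs3 and Peg10 without Tet tcKO replicate 1 or tHet replicate 1, those of Pfkp and Peg10 without tHet replicate 2, and that of Peg10 without Tet tcKO replicate 2.

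Limma made 0 calls in 6 further lists. Over all 21330 tested genes 3732 had an unadjusted limma p under 0.05. At an unadjusted p under 0.05 there were 0 of 10 DNA methylation genes, 3 of 9 cell cycle genes, 2 of 14 p53 targets, 4 of 13 interferon and MHC class I genes, 2 of 13 clock genes and 3 of 6 germline genes. By edgeR 0 were called in each of these lists, and by DESeq2 2 of the cell cycle genes, 2 of the interferon genes, 1 of the germline genes and 0 of the others. With CT010467.1 left out of the totals limma called 2 cell cycle genes, 2 interferon genes and 1 germline gene, all higher, and with no variance trend 1 cell cycle gene, higher. Dnmt1, the maintenance methyltransferase, stood at 0.20 and Dnmt3a at -0.03. Mki67, a marker of dividing cells, measured 1.15, 1.35 and 2.42 CPM across tHet and 7.84, 4.35 and 4.46 CPM across Tet tcKO, a difference that missed the threshold (limma adjusted p = 0.01004) and passed it in both of those settings.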
